A study of Mus musculus with 6 samples.

Results

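The respiratory chain was examined through the genes that encode its subunits in both genomes of the cell. Members were chosen by gene symbol, as names that match the subunit families of complexes I to V (Nduf, Sdh, Uqcr, Cox and Atp5) and the protein-coding genes of mitochondrial DNA, without pseudogenes and without Atp5k. A member also needed at least 100 unique molecular identifiers (UMIs, the tags that mark single captured RNA molecules) summed over all kidneys. Of 95 genes with a matching name, 91 qualified, among 28208 genes that all count matrices list. These were 13 mitochondrially encoded genes and 78 nuclear genes, with 35 of the nuclear genes in complex I, 4 in complex II, 8 in complex III, 15 in complex IV, and 16 in complex V. Only the UMI total is a measured value in this rule, and no group label enters it. The gene family itself was chosen with earlier results of these data known. The members just inside the limit were Ndufa4l2 with 289 UMIs and Cox6a2 with 1526 UMIs. Just outside it were Cox8b with 50 UMIs, a second gene entry named Atp5o with 7, Cox8c with 1, and Cox7b2 with 0. The name rule has limits of its own: it misses the subunits Cox4i1 and Ndufab1, and it takes in Atp5s and Atp5sl, which are not structural subunits of the ATP synthase. Ndufa4 and Ndufa4l2 are counted with complex IV.

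Complexes I to IV pass electrons from NADH and succinate to oxygen, and complexes I, III, and IV pump protons across the inner mitochondrial membrane. Complex V, the ATP synthase, uses the returning protons to make ATP. Complex II is encoded by the nucleus alone, whereas the other complexes are built from subunits of both genomes, so that their assembly draws on cytosolic and mitochondrial protein synthesis. The kidney tubule depends on this pathway, because the sodium pump that drives reabsorption in the proximal tubule, the thick ascending limb, and the distal convoluted tubule consumes large amounts of ATP.

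Single cells of 6 mouse kidneys were profiled with droplet-based 3′ RNA sequencing, with 1 library and 1 animal per kidney and 2 kidneys in each of 3 groups. Naive kidneys were untransplanted kidneys of C57BL/6 (B6) wild-type mice of 10 to 12 weeks. Rejecting kidneys were kidneys of BALB/c donors of 6 to 7 weeks, placed in wild-type B6 male recipients whose own kidneys had both been removed, and retrieved on day 15 without other treatment. Tolerized kidneys were transplanted in the same way, and the recipients also received intravenous infusions of BALB/c splenocytes treated with ethylenecarbodiimide (ECDI). The labels give the days of infusion as 7 and +1, and the study's methods place the first of them before transplantation. In grafts, tubular cells come from the BALB/c donor and infiltrating leukocytes mostly from the B6 recipient. Strain, age, transplantation, and the gene list and barcodes of the count matrices all differ between naive kidneys and grafts and cannot be told apart. The study describes the kidneys of its groups as handled side by side. The comparison of tolerized with rejecting kidneys shares strain, age, and day.

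The libraries held 34874702 to 96803926 UMIs, and 45667 cells remained after filtering and removal of likely doublets. The filter itself touches the members, since cells with over 50% mitochondrial UMIs were left out, which removed 1634 and 2457 barcodes of the naive kidneys, 1067 and 150 of the rejecting kidneys, and 401 and 1828 of the tolerized kidneys. The naive libraries shared 111 barcodes, graft libraries 18 to 35 with each other, and naive and graft libraries 0 to 4. Barcodes thus divide naive from graft libraries, and the part of this difference in the results was not tested. Cells were grouped by marker genes into classes named with the ending "-like", and members took no part in choosing the genes for clustering. Most tubular classes joined clusters of almost only naive cells with clusters of almost only graft cells. For the loop of Henle, 1 cluster held 225 and 205 naive cells and another 10 and 3. A proximal tubule-like cluster with a median of 986 UMIs held 1059 and 140 rejecting cells. It held 205 and 149 tolerized and 3 and 0 naive cells. The part of these divisions in the results was not tested. In proximal tubule-like cells, all 13 proximal markers were detected in every kidney and made up 1.62% to 2.08% of non-mitochondrial UMIs. The Y-linked gene Ddx3y was present in proximal tubule-like cells of all 6 kidneys, which the labels give as male.

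Summed levels of the nuclear members were highest in distal convoluted tubule-like or loop of Henle-like cells in each kidney, and leukocyte classes and endothelium-like cells lay below every tubular class. The summed nuclear members made up 7.95% and 9.02% of non-mitochondrial UMIs in proximal tubule-like cells of the naive kidneys, 5.32% and 4.59% when rejecting, and 5.57% and 5.66% when tolerized. Both naive kidneys were above all 4 grafts, and the rejecting and tolerized kidneys did not overlap but lay close together. In distal convoluted tubule-like cells, the share was 12.6% and 13.6% (naive), 9.22% and 7.98% (rejecting), and 10.4% and 9.91% (tolerized). Relative to proximal tubule-like cells of the same kidney, this was 1.51 to 1.86 times as much. Pooled leukocytes held 2.97% and 3.44% in naive kidneys and 1.81% to 2.28% in the grafts, which was 0.370 to 0.429 times the proximal level of the same kidney. These shares are compared between classes as a description, since cells of all classes in a kidney share 1 library. A lower share can come from fewer transcripts of these genes or from more of other transcripts in the same cells, and UMI shares do not separate these.

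Loop of Henle-like cells departed from the pattern of the proximal tubule. Their nuclear share was 9.65% and 11.1% (naive), 9.77% and 8.13% (rejecting), and 10.0% and 8.74% (tolerized), so that the groups overlapped. As a result, the loop of Henle-like share was 1.21 and 1.23 times the proximal share in naive kidneys, 1.84 and 1.77 times in rejecting kidneys, and 1.79 and 1.54 times in tolerized kidneys.

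The mitochondrially encoded members were also highest in distal convoluted tubule-like or loop of Henle-like cells, with leukocyte classes and endothelium-like cells again below every tubular class, and varied more between the tolerized kidneys. They made up 26.7% and 24.9% of all UMIs in proximal tubule-like cells of the naive kidneys, 17.6% and 17.5% when rejecting, and 15.7% and 24.3% when tolerized. The tolerized kidneys thus spanned the range from below the rejecting kidneys to just under the naive ones. In distal convoluted tubule-like cells, the share was 36.8% and 36.6% (naive), 27.1% and 28.7% (rejecting), and 23.6% and 31.6% (tolerized). In pooled leukocytes, it was 11.6% and 13.7% (naive), 7.45% and 4.85% (rejecting), and 4.33% and 6.69% (tolerized). Beside the leukocyte values, the share of proximal tubule markers in leukocytes, which reads RNA from outside the cell, was 0.231% and 0.277% of non-mitochondrial UMIs in naive kidneys and 0.0141% to 0.0682% in the grafts. Its part in the higher naive levels was not tested.

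**Figure D1:**
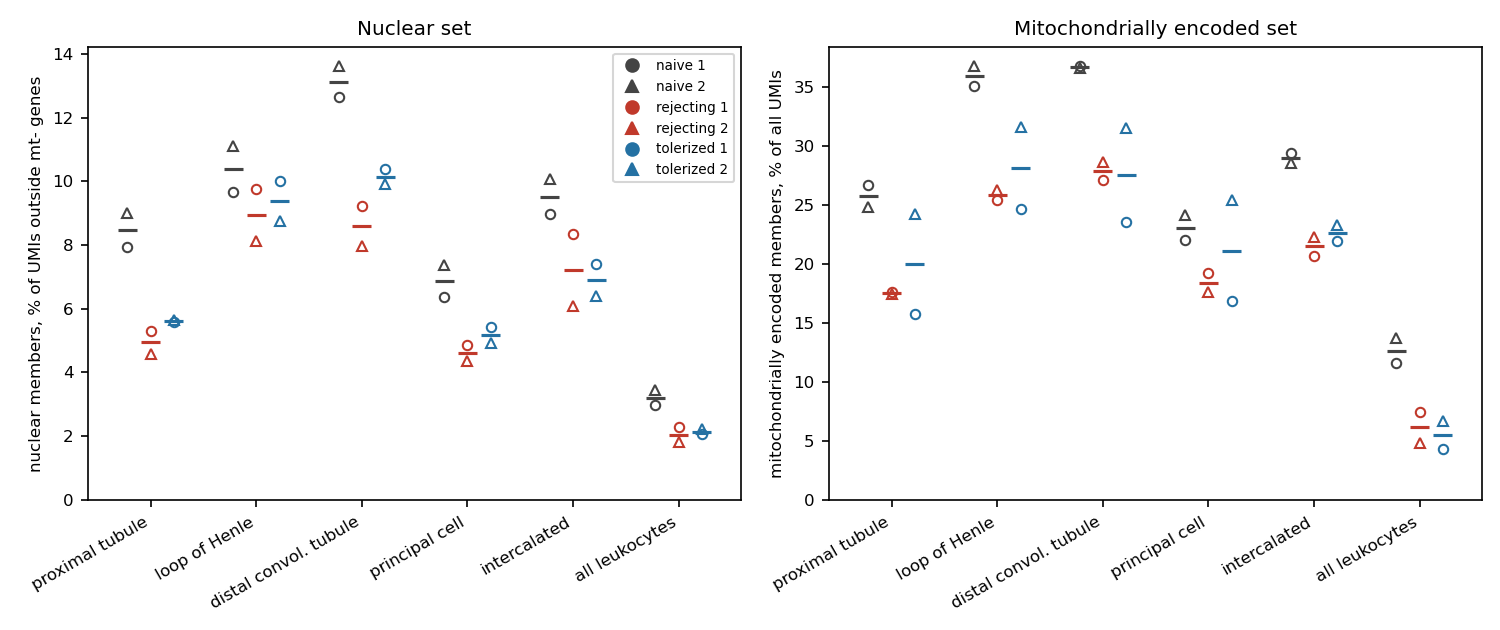
Share of UMIs from the nuclear members (percent of non-mitochondrial UMIs) and from the mitochondrially encoded members (percent of all UMIs) by cell class and group, with a circle for replicate 1, a triangle for replicate 2, and a bar at the mean of the 2 kidneys. The nuclear share of proximal tubule-like cells lies at 7.95% and 9.02% in naive kidneys and at 4.59% to 5.66% in the grafts, whereas in loop of Henle-like cells the groups overlap.

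Whether rejection and tolerance were accompanied by a different level of chain transcripts was tested in proximal tubule-like cells, the largest tubular class with 1155 to 4845 cells per kidney. The UMI sums of each kidney were compared by edgeR's quasi-likelihood test with Benjamini-Hochberg adjustment over every gene tested in that class. Members past an adjusted p of 0.05 are called lower or higher. Levels of single genes are given as CPM, the sums brought to a common total after scaling by the trimmed mean of M values (TMM), and fold changes are on the log2 scale with their standard error (SE). The p-values measure only the spread between kidneys of a group. The 3 comparisons among the groups share kidneys, so their values stand side by side and are not independent of each other.

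Between rejecting and naive kidneys, 68 of the 90 members tested in proximal tubule-like cells fell and none rose. Among all 12666 genes tested, 41.5% were called in either direction, 19.0% as lower and 22.5% as higher. The members called were 62 of the 77 nuclear genes tested and 6 of the 13 mitochondrially encoded genes. The median log2 fold change was -0.94 over the nuclear members and -0.84 over the mitochondrially encoded members, beside 0.06 over all genes tested. Kidneys of the groups did not overlap for 73 nuclear and 12 mitochondrially encoded members, whereas 75.2% of all genes tested did not overlap. Ndufa4l2, with its low count, was the one member not tested. With the total UMIs as the scale in place of TMM, 39 members were lower and 4 higher, and the median of all genes moved from 0.06 to 0.51, so the values below are relative to that scale. Without the second naive kidney, 45 members were called.

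Several measures were read beside this result, of which all but the UMIs per cell were higher in rejecting than in naive kidneys. Markers of macrophages in proximal tubule-like cells made up 0.0124% and 0.0105% of non-mitochondrial UMIs in naive kidneys, 0.0644% and 0.0212% when rejecting, and 0.0172% and 0.00882% when tolerized, with 9 or 10 of 10 markers detected. The summed T cell markers lay at 0.000117% and 0.000149%, 0.0209% and 0.00451%, and 0.00162% and 0.00150% in the same order of groups, with 6 to 10 of 10 markers detected. The 8 immediate early genes, which respond to tissue dissociation as well as to injury, made up 0.151% and 0.114% (naive), 0.455% and 0.367% (rejecting), and 0.353% and 0.202% (tolerized). The median number of UMIs per proximal tubule-like cell was 3288 and 3365.5 when naive, 2886.5 and 4272 when rejecting, and 7030 and 10615 when tolerized. The part of these measures in the lower levels of the members was not tested.

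Complex I, which takes electrons from NADH, had 30 of 35 nuclear subunits lower in rejecting kidneys, with a median log2 fold change of -0.88. The accessory subunit Ndufa3 (chromosome 7, 3617373 to 3620327 of GRCm38) had 965 and 1266 CPM (naive), 92.0 and 129 (rejecting), and 262 and 218 (tolerized). The 3 groups did not overlap, with naive kidneys highest and rejecting kidneys lowest. Its log2 fold change, rejecting to naive, was -3.34 ± 0.25 (SE, adjusted p = 5.58e-05), the most negative of any member. Ndufv3, a subunit of the module that binds NADH, had 946 and 1135 CPM (naive), 251 and 216 (rejecting), and 391 and 362 (tolerized), again without overlap. By contrast, Ndufs1, the large core subunit that carries iron-sulfur clusters, had 106 and 107 CPM (naive), 108 and 111 (rejecting), and 124 and 138 (tolerized). Its log2 fold change of 0.05 ± 0.15, rejecting to naive, did not pass (adjusted p = 0.808). Ndufa9, Ndufb7, Ndufb8, and Ndufv1 did not pass either.

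Complex II, succinate dehydrogenase, joins the citric acid cycle to the chain and had 3 of its 4 subunits lower. Sdha, the flavoprotein that oxidizes succinate, had 354 and 337 CPM (naive), 205 and 188 (rejecting), and 224 and 254 (tolerized). Sdhb, its iron-sulfur partner, had 685 and 649 CPM (naive), 264 and 378 (rejecting), and 381 and 364 (tolerized). Both were lower in every rejecting kidney than in either naive kidney, and Sdhb overlapped between rejecting and tolerized kidneys. The log2 fold change, rejecting to naive, was -0.81 ± 0.16 for Sdha (adjusted p = 0.0051) and -1.05 ± 0.20 for Sdhb (adjusted p = 0.0046). The membrane anchor Sdhd had 84.7 and 245 CPM in rejecting kidneys, a spread that held both naive values of 198 and 235 CPM, and it did not pass.

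Complex III, which passes electrons to cytochrome c, had 7 of 8 nuclear subunits lower, with a median of -1.24. The small subunit Uqcr11 had 1625 and 1940 CPM (naive), 658 and 436 (rejecting), and 848 and 882 (tolerized). Its groups did not overlap. The exception was the core protein Uqcrc2, with 322 and 313 CPM (naive), 206 and 273 (rejecting), and 281 and 301 (tolerized). For Uqcrc2 the log2 fold change was -0.41 ± 0.18 (adjusted p = 0.104), although the rejecting kidneys lay below all others.

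Complex IV, cytochrome c oxidase, reduces oxygen to water, and 11 of its 14 nuclear members tested were lower, with a median of -1.25. Cox6a1, the form of subunit VIa found in most tissues (chromosome 5, 115345642 to 115348981), had 1958 and 1986 CPM (naive), 520.0 and 581 (rejecting), and 727 and 696 (tolerized). Its naive kidneys stood above the grafts, and its rejecting kidneys were lowest, with a log2 fold change of -1.84 ± 0.17 (adjusted p = 0.000178). The muscle form Cox6a2 was near its detection limit in these cells, with 62 and 65 UMIs when naive, 9 and 6 when rejecting, and 16 and 39 when tolerized.

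Ndufa4 had 2987 and 3436 CPM (naive), 1397 and 1022 (rejecting), and 1427 and 1491 (tolerized). Cox7a1, the muscle form of subunit VIIa, had 54.4 and 87.8 CPM (naive), 20.2 and 16.5 (rejecting), and 35.8 and 41.1 (tolerized). Its partner form Cox7a2 had 1825 and 2143 CPM (naive), 1083 and 661 (rejecting), and 1166 and 1162 (tolerized). In all 3 genes the naive kidneys were highest and the rejecting kidneys lowest, without overlap. The log2 fold change, rejecting to naive, was -1.41 ± 0.21 for Ndufa4 (adjusted p = 0.0017), -1.94 ± 0.25 for Cox7a1 (adjusted p = 0.000797), and -1.19 ± 0.25 for Cox7a2 (adjusted p = 0.00674). Cox5a, which binds near the catalytic core, was closer to the limit, with 1165 and 1457 CPM (naive), 839 and 936 (rejecting), and 1019 and 961 (tolerized) (log2 fold change -0.56 ± 0.19, adjusted p = 0.0407).

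Complex V had 11 of 16 nuclear members lower, with the smallest median of the complexes at -0.81. In its catalytic head, Atp5a1, the alpha subunit, had 954 and 1118 CPM (naive), 987 and 885 (rejecting), and 1018 and 986 (tolerized), so that all groups overlapped. Atp5b, the beta subunit that carries the catalytic sites, had 1832 and 2008 CPM (naive), 1297 and 1391 (rejecting), and 1616 and 1627 (tolerized). Here the groups did not overlap, and the log2 fold change was -0.51 ± 0.17 (adjusted p = 0.0436) beside -0.15 ± 0.18 for Atp5a1 (adjusted p = 0.526).

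The 3 genes Atp5g1, Atp5g2, and Atp5g3 encode the same mature c subunit, which forms the rotating ring, with different import peptides. Atp5g1 had 1386 and 1614 CPM (naive), 699 and 643 (rejecting), and 771 and 823 (tolerized). Atp5g2 had 469 and 584 CPM, 253 and 334 CPM, and 335 and 359.6 CPM in the same order of groups. Atp5g3 had 865 and 951 CPM, 459 and 509.9 CPM, and 529.8 and 673 CPM. All 3 had both naive kidneys above all grafts, and the log2 fold change, rejecting to naive, was -1.16 ± 0.18 for Atp5g1, -0.85 ± 0.20 for Atp5g2, and -0.91 ± 0.19 for Atp5g3 (adjusted p = 0.00173, 0.0107, and 0.00621). Exon bases of Atp5g2 are shared with another gene on the same strand, as are those of Ndufb2, Ndufb8, Ndufb9, and Atp5o, and reads of such genes may be divided or lost by the counting.

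**Figure D2:**
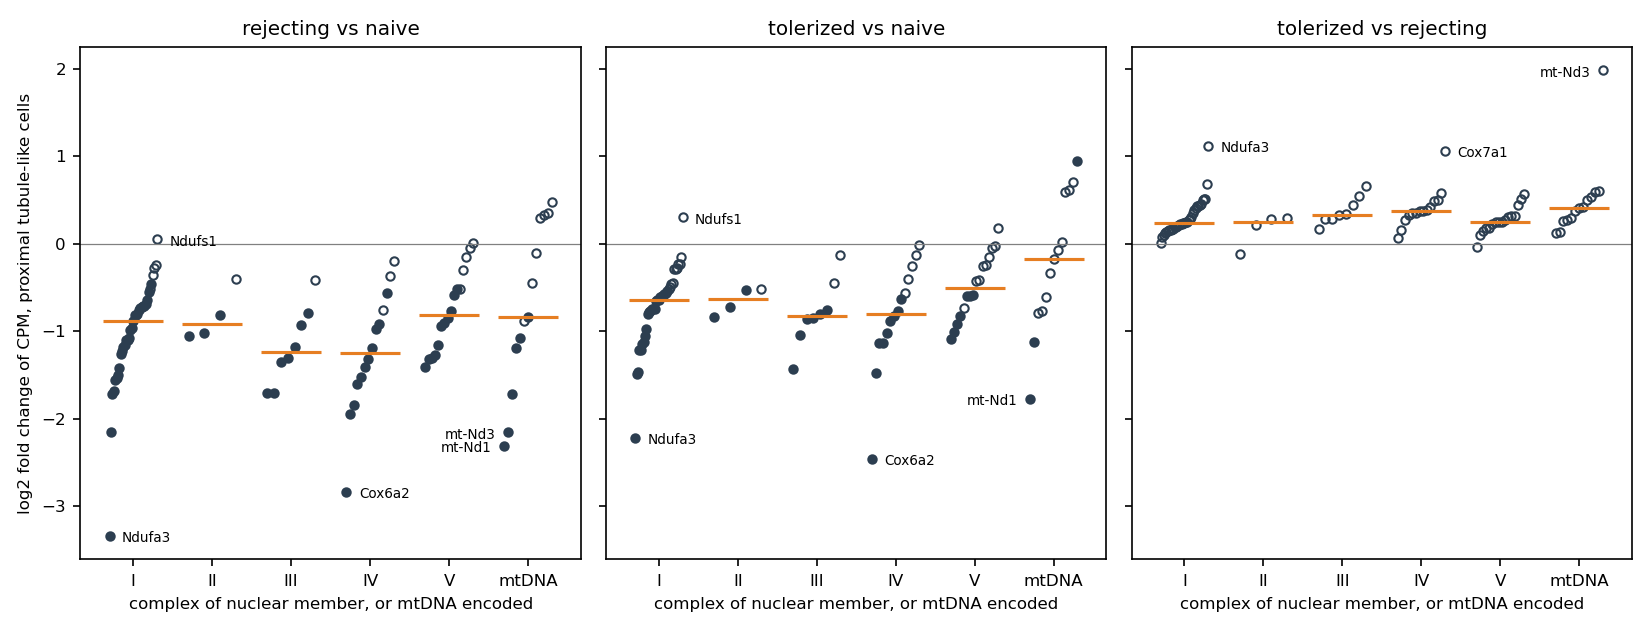
Log2 fold change of every member tested in proximal tubule-like cells by complex and genome, for each of the 3 comparisons, with filled points for members past an adjusted p of 0.05 and an orange bar at the median of each set. All called members are below 0 in rejecting against naive kidneys, and no point is filled in tolerized against rejecting kidneys, where medians of the nuclear complexes lie between 0.24 and 0.37.

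The mitochondrially encoded members did not move as 1 block in rejecting kidneys. The complex I subunit mt-Nd1 had 31092 and 36962 CPM (naive), 7267 and 6468 (rejecting), and 7654 and 12287 (tolerized). Cytochrome b of complex III, mt-Cytb, had 37224 and 34741 CPM, 11555 and 10379 CPM, and 10656 and 22363 CPM in the same order. For both genes the naive kidneys were above all grafts, and the log2 fold change, rejecting to naive, was -2.31 ± 0.29 for mt-Nd1 (adjusted p = 0.000731) and -1.71 ± 0.35 for mt-Cytb (adjusted p = 0.00584). The catalytic subunit of complex IV, mt-Co1, had 37642 and 36672 CPM (naive), 22596 and 19004 (rejecting), and 23874 and 35197 (tolerized). Subunit a of complex V, mt-Atp6, had 69720 and 64185 CPM, 29945 and 33341 CPM, and 27604 and 49796 CPM. Both passed between rejecting and naive kidneys, at -0.84 ± 0.27 for mt-Co1 (adjusted p = 0.0362) and -1.08 ± 0.32 for mt-Atp6 (adjusted p = 0.0259).

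The other members of the mitochondrial genome that fell were mt-Nd3 and mt-Nd4, whereas mt-Nd2, mt-Nd4l, mt-Nd5, mt-Nd6, mt-Co2, mt-Co3, and mt-Atp8 did not pass. mt-Nd2 had 10563 and 10820 CPM (naive), 11908 and 14382 (rejecting), and 12690 and 22111 (tolerized), which put it on the other side of mt-Nd1. mt-Nd6, the one protein gene on the opposite strand of the mitochondrial genome, had 65.2 and 44.6 CPM (naive), 68.4 and 71.7 (rejecting), and 87.8 and 125 (tolerized). With cells limited to 20% mitochondrial UMIs, the value of mt-Co1 was 0.03, and that of the mitochondrially encoded share, rejecting to naive, was -0.00786 in place of -0.556 on the log2 scale.

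Between tolerized and naive kidneys, 49 of the 90 members were called in proximal tubule-like cells, where 31.6% of all genes tested were called and 14.9% were lower. Lower were 46 nuclear members, mt-Nd1, and mt-Cytb, and mt-Nd6 was higher, with a log2 fold change of 0.95 ± 0.23 (adjusted p = 0.0173). The median was -0.64 over the nuclear members and -0.17 over the mitochondrially encoded members. By complex, 21 members of complex I, 3 of complex II, 6 of complex III, 9 of complex IV, and 7 of complex V were lower. Ndufa3 had a log2 fold change of -2.22 ± 0.24 (adjusted p = 0.000414), and Cox6a1 one of -1.47 ± 0.17 (adjusted p = 0.000675). This count depended on single kidneys and on the scale. It was 24 without the first naive kidney, 12 without the second naive kidney, 25 without the first tolerized kidney, 29 without the second tolerized kidney, and 24 with total UMIs as the scale, of which 5 were higher.

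Between tolerized and rejecting kidneys, which share strain, age, and day, no member passed in proximal tubule-like cells, where 0% of all genes tested were called. At an unadjusted p under 0.05 there were 9 nuclear and 2 mitochondrially encoded members, beside 1448 of all genes tested (11.4%). DESeq2 called 3 members, Ndufa3, Cox7a1, and Ndufv3. The share of all genes that DESeq2 called is not given here, nor for the other classes. Estimates leaned to the tolerized side: 75 of 77 nuclear members and 13 of 13 mitochondrially encoded members had a value above 0, with medians of 0.28 and 0.40, whereas 49.9% of all genes tested did. TMM factors were 1.155 and 1.161 for rejecting libraries but 1.079 and 0.955 for tolerized ones, so these values are relative to that scale. With total UMIs as the scale, Ndufb8 was -0.18 in place of 0.0043. All genes with transcripts under 750 bases had a median of 0.23, beside 0.37 over nuclear members of that length. The medians were 0.03 and 0.24 from 750 to under 1500 bases, and -0.01 and 0.25 at 1500 or more. The part of length in this lean was not tested. The kidneys did not overlap for 56 nuclear and 4 mitochondrially encoded members, and for 39.2% of all genes tested. The highest estimates belonged to mt-Nd3, at 1.98 ± 0.48 (adjusted p = 0.209), Ndufa3, at 1.12 ± 0.23 (adjusted p = 0.198), and Cox7a1, at 1.06 ± 0.25 (adjusted p = 0.198). The lowest belonged to Sdhd, at -0.11 ± 0.43, Atp5s, at -0.04 ± 0.20, and Ndufb8, at 0.0043 ± 0.17. On simulated counts of this size, the test found 37% of 2-fold and 88% of 4-fold changes, and smaller changes were not simulated. Without the second rejecting kidney, 2 members passed, Ndufa3 and mt-Nd3.

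The other tubular segments answered the same question with fewer cells, from 57 to 605 per kidney. In loop of Henle-like cells, 13 of 89 members were called between rejecting and naive kidneys, where 17.5% of all genes tested were called, 8.32% as lower and 9.22% as higher. Lower were 5 nuclear and 4 mitochondrially encoded members, and higher were 4 mitochondrially encoded ones. The nuclear median was -0.03, with 33 members above 0 and 43 below, beside 50.3% of all genes tested above 0. The count rested on single kidneys: it was 5 without the first naive kidney, 4 without the second, and 6 without the second rejecting kidney. In distal convoluted tubule-like cells, 32 of 76 nuclear members fell and none rose, 4 mitochondrially encoded members fell and 4 rose, where 23.3% of all genes were called, 10.9% as lower and 12.4% as higher. In principal cell-like cells of the collecting duct, the numbers were 20 nuclear members lower, 2 mitochondrially encoded members lower, and 2 higher, beside 18.2% of all genes, 7.72% as lower and 10.5% as higher. The nuclear medians were -0.52 and -0.46. Leaving out the first or the second naive kidney brought the 40 members called in distal convoluted tubule-like cells to 20 or 12, and the 24 in principal cell-like cells to 10 or 5.

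Ndufa3 fell in every segment tested. Loop of Henle-like cells had 809 and 1098 CPM (naive), 144 and 200.2 (rejecting), and 372 and 259 (tolerized). In distal convoluted tubule-like cells the values were 1135 and 1379 CPM, 170.5 and 197 CPM, and 403 and 326 CPM. In principal cell-like cells they were 702 and 926 CPM, 94.5 and 167 CPM, and 263 and 173 CPM. Naive kidneys were above tolerized kidneys and tolerized above rejecting kidneys in each segment, without overlap. The log2 fold change, rejecting to naive, was -2.47 ± 0.27, -2.77 ± 0.21, and -2.61 ± 0.31. Over tubular, endothelial, and leukocyte classes, both naive kidneys were above all grafts in CPM without TMM scaling in 11 of 12, with natural killer cell-like cells as the exception. In T cell-like cells these levels of Ndufa3 were 460 and 576 when naive, 92.3 and 111 when rejecting, and 191 and 192 when tolerized. The naive values rest on 32 and 40 T cell-like cells, and naive leukocyte classes held 3 to 78 cells per kidney.

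Cox7a1 was lower in rejecting kidneys in all 4 segments, with the most negative estimate in the collecting duct. In principal cell-like cells it had 185 and 274 CPM (naive), 30.5 and 30.6 (rejecting), and 66.9 and 78.3 (tolerized). The groups did not overlap, and the log2 fold change was -2.91 ± 0.27 between rejecting and naive kidneys (adjusted p = 4.43e-06) and 1.25 ± 0.28 between tolerized and rejecting kidneys (adjusted p = 0.0973). In distal convoluted tubule-like cells it had 70.3 and 114 CPM, 12.8 and 22.4 CPM, and 35.4 and 40.7 CPM in the order naive, rejecting, tolerized. Loop of Henle-like cells had 82.3 and 98.5 CPM, 49.9 and 46.8 CPM, and 115 and 69.2 CPM, so that there the tolerized kidneys spanned the naive ones. Intercalated-like cells, which secrete acid or base, held the highest levels of this gene in all 6 kidneys among the tubular classes, at 349.6 and 406 CPM without TMM scaling when naive, 182 and 128 when rejecting, and 225 and 140 when tolerized.

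Members of the mitochondrial genome that rose in the loop of Henle were among those that had not passed in the proximal tubule. In the loop, mt-Atp8, a small subunit of complex V, had 404 and 361 CPM (naive), 988 and 914 (rejecting), and 666 and 1060 (tolerized). mt-Nd5, a proton-pumping subunit of complex I, had 1700 and 1640 CPM, 3186 and 3605 CPM, and 2276 and 3607 CPM. For both, every graft was above both naive kidneys. The log2 fold change of mt-Atp8, rejecting to naive, was 1.31 ± 0.25 for the loop of Henle, 1.56 ± 0.24 for the distal convoluted tubule, and 1.21 ± 0.28 for principal cell-like cells (adjusted p = 0.00279, 0.0011, and 0.00905). Tolerized kidneys gave 1.17 ± 0.25, 1.34 ± 0.24, and 1.19 ± 0.28 against the same naive kidneys. mt-Nd1 fell in the same cells, with 25049 and 34651 CPM (naive), 10048 and 8840 (rejecting), and 11161 and 11991 (tolerized) for loop of Henle-like cells.

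Tolerized kidneys differed from naive ones in fewer members of these segments. For the loop of Henle 6 members were called, beside 11.4% of all genes, of which 5.54% were lower and 5.85% higher. Ndufa3, Sdha, and mt-Nd1 were lower, and mt-Nd2, mt-Nd6, and mt-Atp8 were higher. Sdha had 539.8 and 526 CPM (naive), 288 and 289 (rejecting), and 344 and 313 (tolerized), without overlap between any groups. The distal convoluted tubule had 15 members lower and 2 higher, beside 7.55% and 8.93% of all genes and 16.5% in both directions. Principal cell-like cells had 11 lower and 4 higher, beside 7.55% and 9.27% and 16.8% in both directions. The naive kidneys decided these numbers too, which without the second naive kidney were 1, 2, and 2. In tolerized against rejecting kidneys, no member passed in the 3 segments, where 0.518%, 0.0588%, and 0.104% of all genes were called. At an unadjusted p under 0.05 there were 3, 8, and 6 members, beside 7.13%, 8.28%, and 7.52% of all genes tested. DESeq2 called mt-Nd3 for the loop of Henle, Ndufa3 for the distal convoluted tubule, and no member for principal cell-like cells.

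That the rejecting-to-naive difference was unlike in 2 segments was tested directly. In a model of proximal tubule-like and loop of Henle-like cells with the kidney as a block, the difference of the log2 fold changes passed for 77 of 90 members, 68 nuclear and 9 mitochondrially encoded, whereas 13.1% of all genes passed, 9.04% in the direction of the members and 4.03% in the other. In each of the 77, the change in loop of Henle-like cells lay above that in proximal tubule-like cells. The median difference was 1.08 over the nuclear members and 0.79 over the mitochondrially encoded ones, beside 0.09 over all genes. The NADH module subunit Ndufv3 had the highest difference at 1.86, followed by Ndufc2 at 1.42, Ndufb6 at 1.38, Uqcrb at 1.37, and Cox6b1 at 1.35. The 13 members that did not pass included Ndufs1 and Atp5a1, which did not pass in the proximal tubule, and Sdha, which fell in both segments, with a difference of 0.05. Proximal tubule markers in loop of Henle-like cells made up 0.0867% and 0.278% of non-mitochondrial UMIs in naive kidneys and 0.00867% to 0.0434% in the grafts, and their part in the difference was not tested. For tolerized against rejecting kidneys the difference passed for no member and for 0% of all genes. At an unadjusted p under 0.05 there were 17 nuclear and 2 mitochondrially encoded members. The share of all genes at that limit is not given here. DESeq2 was not run for this difference.

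**Figure D3:**
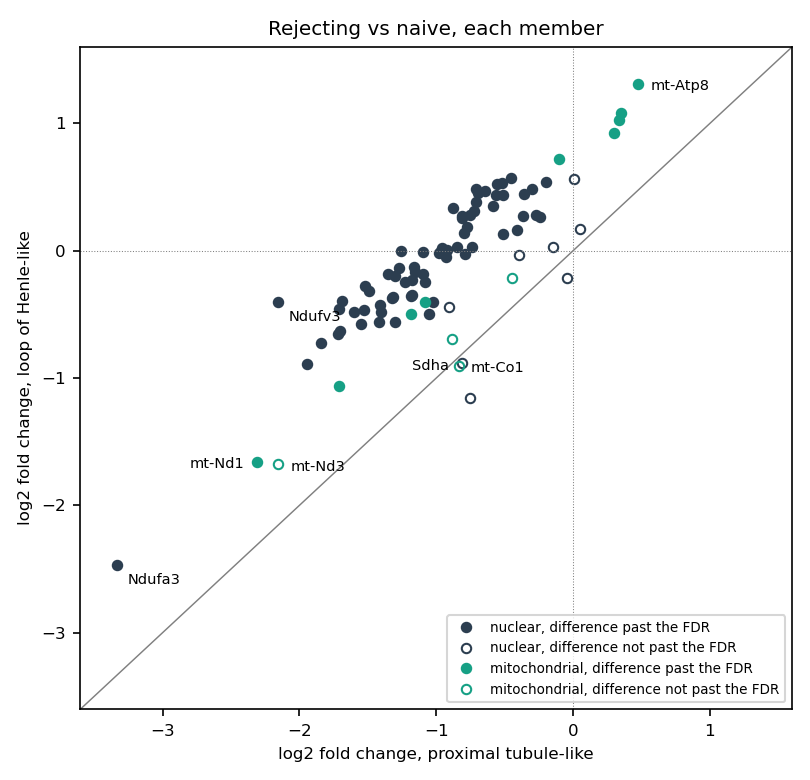
Log2 fold change of each member in proximal tubule-like cells (horizontal axis) and loop of Henle-like cells (vertical axis), rejecting against naive kidneys, for nuclear members (dark) and mitochondrially encoded members (green), filled where the difference between the segments passed. Nearly all points lie above the diagonal line of equal change, and 77 members passed in the joint model.

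The class that held the highest level of a gene also differed between the groups. A difference in change between distal convoluted tubule-like and loop of Henle-like cells was not tested. Among 5 tubular classes, and relative to non-mitochondrial UMIs, 66 and 57 of the 78 nuclear members were highest in distal convoluted tubule-like cells of the naive kidneys, 17 and 28 when rejecting, and 50 and 63 when tolerized. Loop of Henle-like cells held the highest level of 4 and 12 members when naive, 45 and 43 when rejecting, and 23 and 14 when tolerized. No member was highest in principal cell-like cells in any kidney. The class with the highest level was the same in all 6 kidneys for 17 members, of which 15 peaked in distal convoluted tubule-like cells, among them Ndufa3, Cox6c, Cox7c, and Atp5e, with Uqcrc2 in loop of Henle-like cells and Cox7a1 in intercalated-like cells. The class differed between kidneys for the other 61.

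The mitochondrially encoded RNAs are cut from long transcripts of the circular genome. A ratio between 2 of them within a cell class does not depend on how many other transcripts the cells hold. The ratio of mt-Nd1 to mt-Nd2 UMIs in proximal tubule-like cells was 2.94 and 3.42 when naive, 0.610 and 0.450 when rejecting, and 0.603 and 0.556 when tolerized. Over all 12 classes, it ranged from 2.41 to 3.14 in the first and from 2.78 to 3.55 in the second naive kidney, whereas the highest value in any graft was 0.906. Naive kidneys were above all grafts in 12 of 12 classes, leukocytes included, whose cells in grafts come mostly from the B6 recipient. The leukocyte classes of naive kidneys were small, at 3 to 78 cells per class and kidney. The genes lie next to each other on the same strand, at bases 2751 to 3707 and 3914 to 4951 of chromosome M. Where in these genes the reads fell was not examined. They are shown with mt-Nd3 (9459 to 9806) by the last 40 bases, with the stop codon in capitals.
mt-Nd1: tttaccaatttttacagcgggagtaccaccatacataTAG
mt-Nd2: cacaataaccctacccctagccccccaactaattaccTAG
mt-Nd3: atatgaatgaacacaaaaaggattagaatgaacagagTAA

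mt-Nd3 had the highest estimate of all members between tolerized and rejecting proximal tubule-like cells. In the proximal tubule its CPM was 4897 and 3713 (naive), 533 and 1402 (rejecting), and 2482 and 5158 (tolerized). Both rejecting kidneys were below all others, naive and tolerized kidneys overlapped, and the first rejecting kidney was well below the second. Of all mitochondrially encoded UMIs in these cells, mt-Nd3 made up 1.54% and 1.29% (naive), 0.349% and 0.931% (rejecting), and 1.70% and 2.03% (tolerized). The same order held in 6 of 6 tubular and endothelial classes and in 0 of 6 leukocyte classes. In leukocyte classes the share ranged from 0.836% to 1.45% in naive kidneys, where these classes held only 3 to 78 cells per kidney. It ranged from 1.26% to 1.74% in rejecting and from 1.88% to 2.38% in tolerized kidneys, with tolerized above rejecting kidneys in 6 of 6 classes. The log2 fold change, tolerized to rejecting, was 1.64 ± 0.36 for the loop of Henle (adjusted p = 0.0698) and 1.76 ± 0.41 for principal cell-like cells (adjusted p = 0.116), and it did not pass in any segment. The difference between proximal tubule-like and macrophage-like cells in this change, -1.67 ± 0.51 for mt-Nd3, did not pass either (adjusted p = 0.307).

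The rest of the mitochondrial set divided by group in a few members. In proximal tubule-like cells, mt-Cytb made up 11.7% and 12.0% of the mitochondrially encoded UMIs in naive kidneys and 6.89% to 8.80% in the grafts. mt-Nd5 made up 0.657% and 0.580% in naive kidneys and 1.37% to 1.67% in the grafts. mt-Co3, at 18.2% to 23.1%, and mt-Atp6, at 18.9% to 22.2%, overlapped between naive kidneys and grafts. Several of these genes share bases with a neighbor. mt-Atp6 and mt-Co3 share base 8607, and mt-Nd5 and mt-Nd6 overlap on opposite strands. mt-Nd1 shares exon bases with mt-Ti, and mt-Nd2 with mt-Tw. In 2 other places members overlap on the same strand, so that their reads cannot be fully told apart. The last 43 bases of mt-Atp8 are the first of mt-Atp6, at chrM:7927-7969 (GRCm38, forward strand). The last 7 bases of mt-Nd4l are the first of mt-Nd4, at chrM:10167-10173 on the same strand. mt-Atp8 is among the members whose counts rose while those of mt-Atp6 fell or did not pass. Counts of genes that overlap do not show whether 2 separate RNAs changed. The sequences are shown with the start codon of the second gene and the stop codon of the first in capitals.
mt-Atp8 and mt-Atp6: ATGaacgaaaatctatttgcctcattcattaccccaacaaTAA
mt-Nd4l and mt-Nd4: ATGcTAA

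**Figure D4:**
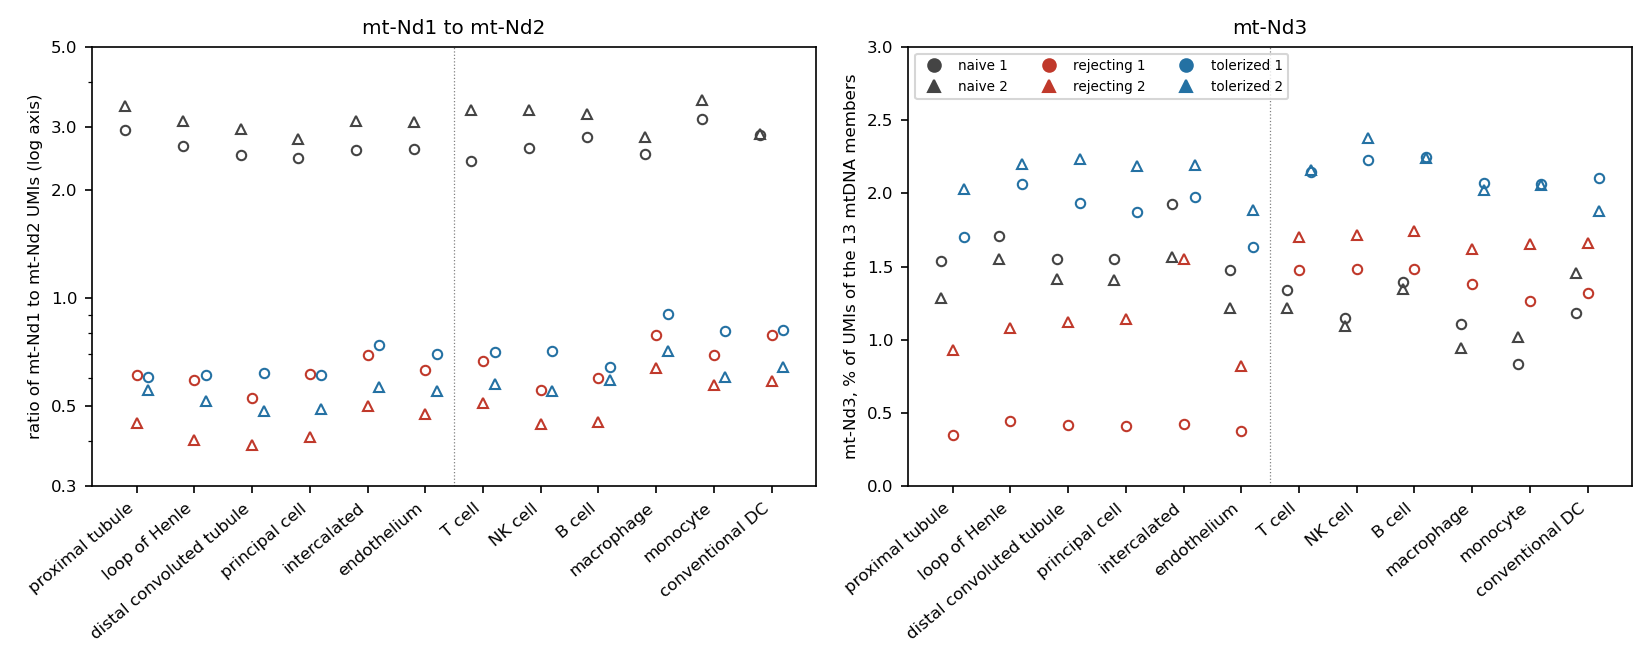
Ratio of mt-Nd1 to mt-Nd2 UMIs (left, log axis) and share of mt-Nd3 among the UMIs of the 13 mitochondrially encoded members in percent (right), by cell class, with a circle for replicate 1 and a triangle for replicate 2 and a dotted line between tubular or endothelial classes and leukocyte classes. The ratio of every naive class is above 2.41 and that of every graft class below 0.906, and the mt-Nd3 share of rejecting kidneys is lowest in tubular and endothelial classes, down to 0.349%.

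In leukocytes only tolerized and rejecting kidneys held enough cells to compare, and no chain member was called. In T cell-like cells, no member passed, and DESeq2 called Ndufa3. An unadjusted p under 0.05 was found for 6 nuclear members, beside 8.17% of all genes tested. No gene of all tested passed. The nuclear median was 0.36, with 71 of 75 members above 0, beside 51.1% of all genes tested. The mitochondrially encoded median was -0.24. All genes with transcripts under 750 bases had a median of 0.33, beside 0.43 over nuclear members of that length. The medians were 0.21 and 0.30 from 750 to under 1500 bases, and -0.04 and 0.29 at 1500 or more. In macrophage-like cells, no member passed, 0% of all genes were called, and DESeq2 called Ndufa3. An unadjusted p under 0.05 was found for 2 nuclear members, beside 6.83% of all genes tested. The nuclear median was 0.12, with 55 of 77 above 0, beside 48.6% of all genes tested. Under 750 bases, the median of all genes was 0.19, beside 0.21 over nuclear members. From 750 to under 1500 bases the medians were 0.02 and 0.08, and at 1500 or more -0.02 and 0.02. The part of length in the values of either class was not tested. Ndufa3 had 85.4 and 109 CPM in the rejecting and 197 and 206 CPM in tolerized kidneys in T cell-like cells, and 90.0 and 114 CPM against 183 and 184 CPM in macrophage-like cells. The groups did not overlap in either class, and the log2 fold change was 1.05 ± 0.23 (adjusted p = 0.426) and 0.85 ± 0.18 (adjusted p = 0.603). Proximal tubule markers in T cell-like cells made up 0.00817% and 0.0322% of non-mitochondrial UMIs (rejecting) and 0.0262% and 0.0758% (tolerized), and the part of such outside RNA in these values was not tested.

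The fold change of a nuclear member went with the length of its transcript. Over the 77 nuclear members tested in proximal tubule-like cells, Spearman's rho between the length of the annotated transcript and the log2 fold change, rejecting to naive, was 0.55, beside 0.29 over 12655 genes. These are correlations across genes that share the same 4 libraries and are given as a description. Of 34 members with transcripts under 750 bases, 31 fell, with a median of -1.31. Of 24 members from 750 to under 1500 bases, 19 fell, with a median of -0.87, and of 19 members of 1500 bases or more, 12 fell, with a median of -0.55. All genes tested of the same length had medians of -0.91, -0.38, and 0.15, and 54.7%, 35.7%, and 14.4% of them were lower. In each bin the median of the members was below that of all genes. The bins are wide, and members and other genes were not matched by length within them. The longest of the top-ranked annotated transcripts was used, which puts Atp5g1 at 4715 bases, 408 of them coding, and Ndufb2 at 4371, 315 of them coding. Whether the cells held transcripts of these lengths was not tested. The part of length in the lower levels was not tested. For the loop of Henle, rho was 0.43 over the members and -0.06 over all genes. Between tolerized and rejecting kidneys, rho was -0.48 over the members of proximal tubule-like cells and -0.08 over all genes.

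**Figure D5:**
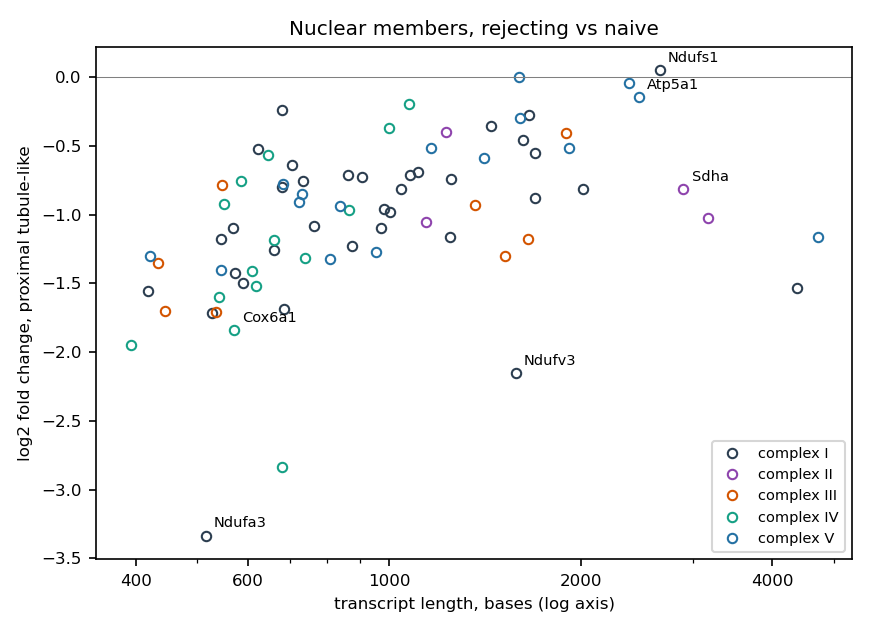
Log2 fold change of each nuclear member tested, rejecting against naive kidneys, in proximal tubule-like cells against the length of its annotated transcript in bases (log axis), colored by complex. Members under 750 bases have a median of -1.31 and members of 1500 bases or more a median of -0.55, and Ndufa3 lies lowest at -3.34.

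Promoters were read because the nuclear members lie on 19 chromosomes and most of those tested fell in the proximal tubule. RefSeq promoters of GRCm38.p6, from 250 bases before to 50 after the start, were matched for 63 of the 78 nuclear members and searched on both strands. The letters TGCGCA, one arm of the site bound by nuclear respiratory factor 1 (NRF1) and the same on both strands, were found in 17 members (27.0% beside 8.79% of 27025 genes). The ETS motif CCGGAAG was found in 15 members (23.8% beside 9.93%) and the letters AAGATGG, the core bound by YY1, in 10 (15.9% beside 7.28%), among them Ndufa3. Among members that fell in rejecting against naive kidneys the numbers were 14, 13, and 8 of 54, and among the others 3, 2, and 2 of 9. A link of these motifs to the fall was not tested. Sdhd, which did not pass, and Atp5l hold both TGCGCA and the ETS motif, as do Cox6a1 and Ndufb6, which fell. The 250 bases before the start are shown for Cox6a1 (chr5:115348959-115349208, reverse strand) and Ndufb6 (chr4:40279422-40279671, reverse strand). The motifs are in capitals, with the ETS letters read from the other strand as CTTCCGG.
Cox6a1: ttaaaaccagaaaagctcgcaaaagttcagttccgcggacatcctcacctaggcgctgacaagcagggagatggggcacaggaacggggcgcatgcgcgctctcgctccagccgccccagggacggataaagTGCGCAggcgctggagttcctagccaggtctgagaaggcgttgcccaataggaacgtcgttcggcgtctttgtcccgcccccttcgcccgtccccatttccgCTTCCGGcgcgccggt
Ndufb6: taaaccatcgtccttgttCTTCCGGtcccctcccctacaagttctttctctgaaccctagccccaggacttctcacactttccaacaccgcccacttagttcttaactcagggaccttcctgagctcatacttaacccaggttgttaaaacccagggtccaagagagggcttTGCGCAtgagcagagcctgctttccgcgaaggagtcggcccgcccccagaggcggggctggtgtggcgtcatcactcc

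Genes around the chain were followed as lists. In proximal tubule-like cells of rejecting against naive kidneys, all 8 chain genes that the name rule leaves out and that were tested fell, with a median of -1.25. They included Usmg5 and Atp5k, small subunits of the ATP synthase, at -3.08 and -2.25, cytochrome c, Cycs, at -1.70, Cox4i1 at -0.81, and the inhibitor of the ATP synthase, Atpif1, at -0.66. Of 45 assembly factors, 24 were lower and 2 higher, and of 78 proteins of the mitochondrial ribosome, 46 were lower and 1 higher, where 19.0% of all genes were lower and 22.5% higher. Of 17 genes of the citric acid cycle, 7 were lower, among them Sucla2 at -1.04 and Idh3g at -0.97. Few of the 18 genes that express or maintain mitochondrial DNA passed: Slirp at -1.37 and Ssbp1 at -0.69 were lower, and Lrpprc at 0.60 was higher. Of 10 regulators, Esrrg at -1.06 and Esrra at -0.46, nuclear receptors that act on mitochondrial genes, were lower, and Ppara, the receptor that acts on fatty acid oxidation, was higher at 1.37. Against the same naive kidneys, tolerized kidneys had 7 of 8 chain genes, 21 assembly factors, and 39 ribosomal proteins lower, beside 14.9% of all genes. In loop of Henle-like cells of rejecting kidneys, 12 of 77 genes of the mitochondrial ribosome were higher and 1 lower, beside 9.22% and 8.32% of all genes. No gene of these lists passed between tolerized and rejecting kidneys in proximal tubule-like cells, where no gene of all tested did.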

How the data were processed

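The authors aligned reads to mm10 with Cell Ranger and deposited raw UMI counts, 1 matrix per kidney, without normalization. The matrices listed 28692 genes for naive kidneys and 31053 for grafts, 28208 of them shared, and a software version is named for the grafts alone. From these counts, barcodes needed 500 UMIs or more, 250 genes or more, and no more than 50% mitochondrial UMIs. Scrublet scores (scanpy 1.11.5) marked doublets, at 0.8% per 1000 barcodes, which were left out after clustering. Clustering used 2500 variable genes without members, 40 components, 20 neighbors, and Leiden (leidenalg 0.10.2) at resolution 1.5. Of 44 clusters, 39 were named from at least 3 markers in at least 10% of cells and 2-fold above the mean over clusters.

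Sums of counts for each class in each kidney passed filterByExpr, were scaled by TMM, and were tested with edgeR 4.0.16 (quasi-likelihood, R 4.3.3), with all 6 kidneys in the tubular fits and 4 grafts in the leukocyte fits. P-values were adjusted (Benjamini-Hochberg) over every gene of a test. The SE is the log2 fold change over the square root of F. Alternatives were DESeq2 1.42.0, DESeq2 size factors, total UMIs as scale, no filter, a replicate block, other cell limits, doublets kept, resolution 0.8, and leaving out each kidney. On simulated counts of proximal tubule-like cells (tolerized and rejecting, 12666 genes), 37% of 2-fold and 88% of 4-fold changes were found, with 14 false calls.

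Members, lists, named genes, and alternatives were chosen with earlier results of these data known. Named are up to 3 members per class, comparison, and direction with the largest fold change among those that passed without overlap, the 3 lowest and 3 highest of tolerized against rejecting proximal tubule-like cells, and a list of 21 members. Ndufv3, Uqcr11, Ndufc2, Ndufb6, Uqcrb, and Cox6b1, and mt-Nd2 in the proximal tubule, were added after their values were seen. Lengths and coordinates are from GENCODE M21 (GRCm38). Lengths are those of the longest transcript in the best APPRIS rank of each gene.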

Additional observations from a re-analysis of the deposited data

Results flagged for a closer look

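The change between rejecting and naive kidneys differed between proximal tubule-like and loop of Henle-like cells, by a test of the difference itself, for 77 of the 90 members tested. Among the named nuclear members, the log2 change in loop of Henle-like cells minus that in proximal tubule-like cells was 1.25 for Cox6a1, 1.15 for Atp5g1, 1.13 for Cox7a1, 1.12 for Cox5a, 1.11 for Ndufa4, 0.99 for Atp5g2, 0.94 for Cox7a2, 0.77 for Atp5b, 0.70 for Uqcrc2, and 0.69 for Sdhb. Of these, Cox6a1 and Cox7a1 fell in both segments, so the difference is one of size, whereas the others passed in the proximal tubule alone or, for Uqcrc2, in neither segment. Among the mitochondrially encoded members it was 0.90 for mt-Nd6, 0.80 for mt-Atp6, 0.79 for mt-Nd1, and 0.78 for mt-Cytb. The 2 classes were taken from the same libraries, in which loop of Henle-like cells numbered 208 to 524 and proximal tubule-like cells 1155 to 4845 per kidney. The part of this inequality in the differences was not tested. No group held the 4 samples that a check for outlying kidneys needs.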

How the results depend on the processing

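Of the counts of called members and the set shares, 184 stayed within 1.5 times or within the spread between kidneys under the alternatives, 24 moved, and 1 reversed, leaving single kidneys aside. With total UMIs as the scale, the members called in proximal tubule-like cells were 43 between rejecting and naive kidneys (4 higher, 39 lower) and 24 between tolerized and naive kidneys (5 higher, 19 lower). In principal cell-like cells there were 15 between rejecting and naive kidneys (3 higher, 12 lower), and in loop of Henle-like cells 1 between tolerized and rejecting kidneys. The split of higher and lower members on that scale was 5 and 5 in loop of Henle-like cells of rejecting against naive kidneys, beside 4 and 9 with TMM. It was 4 and 2 there for tolerized against naive kidneys, beside 3 and 3, and 6 and 6 for the distal convoluted tubule, beside 2 and 15. With DESeq2, tolerized against rejecting kidneys had 3 members in proximal tubule-like cells and 1 each for the loop of Henle, the distal convoluted tubule, T cell-like, and macrophage-like cells. DESeq2 also gave 10 in loop of Henle-like cells of tolerized against naive kidneys. With no filter on low counts, tolerized against rejecting kidneys had 6 members in proximal tubule-like cells, 3 each for the loop of Henle, the distal convoluted tubule, and principal cell-like cells, and 1 each in T cell-like and macrophage-like cells. The difference between proximal tubule-like and macrophage-like cells then passed for 1. Ndufa3, mt-Nd3, and Cox7a1 were among the members that passed under these alternatives. The share of all genes called under DESeq2 or without the filter is not given here. These counts therefore do not show whether members stand out from other genes. With at most 20% mitochondrial UMIs per cell, loop of Henle-like cells had 6 members (rejecting against naive) and principal cell-like cells 9 (tolerized against naive). The log2 ratio of the mitochondrially encoded share in proximal tubule-like cells became -0.00786 for rejecting and 0.0204 for tolerized against naive kidneys, since the limit removes cells by that share. As a percent of all UMIs, the nuclear share had log2 ratios of -0.626 and -0.489. Except for the filter on mitochondrial UMIs, the cause of these changes was not tested.

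Kidneys with the same replicate number did not deviate together over all genes tested, with correlations of -0.19 to 0.07. With 2 kidneys per group, these values cannot show whether the replicate numbers mark a shared batch. The study marks each kidney as part of experiment 1 or 2, and its text does not say how these match the replicate numbers. With the replicate number as a block, members called were 64 between rejecting and naive and 43 between tolerized and naive proximal tubule-like cells. Tolerized against rejecting kidneys had 1 in loop of Henle-like and 1 in principal cell-like cells, mt-Nd3 in both, and no other count moved by over 1.5 times. Crossed numbers in T cell-like cells, added after the data were seen, gave 0.

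Leaving out each kidney in turn gave these ranges of members called, in the order rejecting against naive, tolerized against naive, and tolerized against rejecting kidneys. In proximal tubule-like cells they were 45 to 69, 12 to 58, and 0 to 2. In loop of Henle-like cells they were 4 to 14, 1 to 7, and 0 to 1. The distal convoluted tubule had 12 to 45, 2 to 30, and 0 to 2, and principal cell-like cells 5 to 29, 2 to 18, and 0 to 1. T cell-like cells had 0 to 1 and macrophage-like cells 0 to 0. The second naive kidney gave the lowest count in each comparison with naive kidneys, and the second rejecting kidney the calls in tolerized against rejecting kidneys, with mt-Nd3 also past the limit without the first tolerized kidney in loop of Henle-like and principal cell-like cells. The difference between segments passed for 55 to 79 members (rejecting against naive) and 0 to 0 (tolerized against rejecting), and that with macrophage-like cells for 0 to 1. The log2 ratio of the nuclear share ranged from -0.886 to -0.674, -0.683 to -0.502, and 0.0792 to 0.291, and that of the mitochondrially encoded share from -0.606 to -0.504, -0.712 to -0.0880, and -0.157 to 0.468.

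A few values of single genes near 0 in proximal tubule-like cells turned. Between tolerized and rejecting kidneys, Sdhd ranged from -0.68 to 0.85 when single kidneys were left out, Atp5s from -0.18 to 0.18, and Ndufb8 from -0.067 to 0.092, and Atp5a1 ranged from -0.16 to 0.068 between tolerized and naive kidneys. Atp5s was 0.000884 with doublets kept and 0.13 with at most 20% mitochondrial UMIs. Ndufb8 was -0.18 with total UMIs as the scale, -0.00285 with at least 1000 UMIs per cell, and -0.00418 without clusters under 1000 median UMIs. With at most 20% mitochondrial UMIs, mt-Co1 was 0.031 (rejecting) and 0.35 (tolerized) against naive kidneys. With total UMIs as the scale, Uqcrc2 was 0.038 and 0.13, Atp5a1 was 0.30 and 0.21, and Atp5b was 0.012 in tolerized against naive kidneys. The smaller segments held 57 to 605 cells per kidney, with 2 kidneys per group. Naive kidneys differ from grafts in strain, age, transplantation, gene list, and barcodes, so the counts describe these 6 libraries.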

Other observations

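The 2 members with the fewest UMIs had most of them in 1 cluster each. Cox6a2, the muscle form of a cytochrome c oxidase subunit, had 71.1% of its 1444 UMIs in a plasmacytoid DC-like cluster of 139 cells, of which 77.7% held at least 1 UMI. In the macrophage-like cluster with the next most UMIs, of 3535 cells, 2.80% held a UMI. Siglech, Ccr9, and Bcl11a led the plasmacytoid DC-like cluster, next to Cox6a2 itself, which did not take part in the choice of genes for clustering. Ndufa4l2, a relative of Ndufa4 known as a target of the hypoxia response, had 76.8% of its 185 UMIs in an unnamed cluster of 279 cells led by Npy, Cryab, Slc4a11, and Aqp1, in which 13.3% of the cells held a UMI. Cox6b2, the testis form of a cytochrome c oxidase subunit and the member with the next fewest UMIs, was spread over clusters, with at most 11.1% of its 2376 UMIs in any 1, a proximal tubule-like cluster. Cox7a1 was spread as well, with the highest share of cells with a UMI, 71.3%, in an intercalated-like cluster of 321 cells led by Atp6v1g3 and Slc26a4, and with 59.0% in a principal cell-like cluster of 749 cells. In leukocyte classes, Cox7a1 reached at most 6.32 CPM without TMM scaling in the grafts.

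Genes of the immediate early response moved opposite to the chain members in proximal tubule-like cells. Between rejecting and naive kidneys, 6 of 8 were higher and none lower, where 22.5% of all genes were higher and 19.0% lower. Atf3 had 9.08 and 8.47 CPM in the naive kidneys, 318 and 255 CPM in the rejecting kidneys, and 198 and 76.9 CPM in the tolerized kidneys. The groups did not overlap, and the log2 fold change, rejecting to naive, was 5.03 ± 0.44. Against the same naive kidneys, tolerized kidneys had 5 of 8 higher, beside 16.7% of all genes.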
